A study of Mus musculus with 4 samples.

Results

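Genes whose RNA is known to change when a muscle fiber loses its nerve were examined: Ncam1, Runx1, Gadd45a, Hdac4, Hdac9 and Dach2. They were chosen by gene name, each name matched 1 row of the expression table, and they are 6 of 57180 genes listed. RNA was sequenced from whole tibialis anterior (TA), a limb muscle rich in fast fibers, in 2 control and 2 exercise libraries. All mice were wild-type C57BL/6J, described as male in the study's methods, aged 3 weeks when the protocol began and 8 weeks when muscle was taken. Control mice were sedentary. Exercise mice were accustomed to a treadmill over 5 days, at 30 min per day from 8 m/min upward, and then ran for 4 weeks on 5 days per week, 45 min per day, at 12 m/min. No nerve was cut in either group, so the data hold no denervated muscle to set beside these values. The sources do not say whether a library came from 1 mouse, so a p-value here covers only library-to-library spread, part of which may be technical.

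Activity of the motor nerve keeps a set of genes low in the adult fiber. When the nerve is lost, the class IIa histone deacetylase HDAC4 accumulates in muscle nuclei and the repressor Dach2 falls, which in mice releases myogenin (Myog), and myogenin raises the acetylcholine receptor subunits and the ubiquitin ligases of atrophy. Hdac9, through its short form MITR, holds the same synaptic genes down in innervated muscle, whereas Runx1, Ncam1 and Gadd45a are induced by denervation. The same genes are also active in myoblasts and immature fibers, and whole-muscle RNA does not separate these sources from the synaptic region of a mature fiber.

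Start-site windows of the genes are shown because myogenin and MyoD bind the E-box, written CANNTG on both strands. Of the tested genes, only Runx1 had Myog as 1 of its 2 closest genes in the pattern of RNA level over the libraries. Arpp21 was closer, and 300 of 8602 genes lay within 0.1 of Runx1 on the log2 scale. Whether myogenin acts on Runx1 was not tested. The windows run from 250 bases before a RefSeq start site to 50 bases after it on build GRCm38.p6, while the RNA-seq used GRCm39. Of the 6 genes, 5 had an entry, with 8 windows in all, and Ncam1 is named only. Capitals mark E-boxes. The distal Runx1 window (chr16:92826025-92826324, minus strand) held 3 E-boxes, at 167, 136 and 71 bases before the start, and 2 Runx motifs (TGTGGT or its reverse complement ACCACA) after it. The upstream Hdac9 window (chr12:34917046-34917345, minus strand) held 2 E-boxes, at 89 and 76 bases before the start. The Gadd45a window (chr6:67037358-67037657, minus strand) held 1, at 67 bases before the start. The Myog window (chr1:134289754-134290053, plus strand), given for comparison, held 2, at 138 and 12 bases before the start.
Runx1: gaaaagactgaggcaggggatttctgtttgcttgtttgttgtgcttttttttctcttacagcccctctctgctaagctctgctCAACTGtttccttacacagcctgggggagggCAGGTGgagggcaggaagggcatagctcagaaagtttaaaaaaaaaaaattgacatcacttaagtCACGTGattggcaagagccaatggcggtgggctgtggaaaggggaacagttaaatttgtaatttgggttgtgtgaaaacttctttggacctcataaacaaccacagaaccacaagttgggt
Hdac9: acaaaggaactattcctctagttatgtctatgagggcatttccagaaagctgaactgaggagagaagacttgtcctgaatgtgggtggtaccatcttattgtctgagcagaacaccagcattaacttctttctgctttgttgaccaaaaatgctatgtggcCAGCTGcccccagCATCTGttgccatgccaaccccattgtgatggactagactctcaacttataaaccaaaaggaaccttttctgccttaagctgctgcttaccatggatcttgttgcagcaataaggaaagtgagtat
Gadd45a: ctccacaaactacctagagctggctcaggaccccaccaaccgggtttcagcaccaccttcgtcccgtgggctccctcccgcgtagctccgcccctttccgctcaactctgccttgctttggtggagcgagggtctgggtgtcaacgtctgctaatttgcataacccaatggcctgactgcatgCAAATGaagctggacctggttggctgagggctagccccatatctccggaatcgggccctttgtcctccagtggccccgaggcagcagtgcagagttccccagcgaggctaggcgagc
Myog: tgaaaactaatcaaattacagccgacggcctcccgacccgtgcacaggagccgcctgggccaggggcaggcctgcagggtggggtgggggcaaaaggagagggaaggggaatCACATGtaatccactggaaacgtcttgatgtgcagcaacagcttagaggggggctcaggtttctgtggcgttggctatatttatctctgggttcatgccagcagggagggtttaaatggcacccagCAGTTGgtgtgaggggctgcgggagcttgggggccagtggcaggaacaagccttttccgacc
The Hdac4 window (chr1:92180292-92180591) and the proximal Runx1 window (chr16:92697280-92697579) held no E-box, the inner Hdac9 window held 3, and the 2 Dach2 windows held 1 and 0. The motif is common: 72.3% of 32851 windows of this length held an E-box and 16.8% held a Runx motif. A match is a description of these letters and not a bound site.

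The table gives TPM (read abundance per transcript length, scaled to the same total in every library), which keeps no read counts, so depth is unknown. The 50 highest genes held 59.0 to 62.1% of TPM in control libraries and 45.8 to 50.5% in exercise libraries, so all other genes share a larger remainder in the exercise group. Of 13288 genes that reached 1 TPM in 2 or more libraries, 55.3% were called higher and 6.19% lower in the exercise group (limma on log2(TPM + 1), Benjamini-Hochberg adjusted p under 0.05), and the median log2 fold change was 0.53. Each count of these 6 genes, and of any list below, is therefore read against 55.3%. The fold change of each tested gene of the 6 is also given with its place against that median and with median-of-ratios scaling. That scaling brings the median to 0.00 and the shares called higher and lower to 10.6% and 16.8%. Fold changes of other genes are on TPM as deposited unless a scaling is named, and are read against a median of 0.53. Without exercise replicate 2 the number called higher fell from 7344 to 2622 and the number called lower from 822 to 410. Beside the 6 genes, 4 of 4 Y-linked genes were higher and Xist, the RNA of the inactive X chromosome, was lower: Xist stood at 14.9 and 11.7 TPM without exercise, against 0 and 0.07 TPM with it. Eif2s3y stood at 0.30 and 0 TPM without exercise, against 16.7 and 25.2 TPM with it. Ddx3y stood at 10.0 and 12.1 TPM without exercise, against 41.2 and 37.6 TPM with it. Uty stood at 3.75 and 4.03 TPM without exercise, against 11.6 and 11.1 TPM with it, and Kdm5d at 1.81 and 2.67 against 7.45 and 8.50 TPM. Both control libraries thus held Xist RNA beside RNA of Ddx3y, Uty and Kdm5d, but little or none of Eif2s3y. These values go against the male sex given in the methods. Any effect of sex cannot be told apart from exercise in any value below. The myofiber markers were Ckm, Acta1, Myh1, Myh2, Myh4, Tnnt3, Mylpf and Pvalb, most of them genes of fast fibers. They summed to 114100 and 124000 TPM without exercise and to 88180 and 71430 TPM with it. Of these 8, 5 were lower in the exercise group, and Myh2, Mylpf and Pvalb were not called. Slow fiber markers summed to 3162 and 4180 TPM without exercise and to 8340 and 13340 TPM with it, with 5 of 7 higher. Myl2 and Myl3 were not called, and the exercise libraries lay on either side of the controls. Myl2 stood at 67.5 and 198 TPM without exercise, against 8.74 and 1872 TPM with it. Myl3 stood at 28.9 and 47.9 TPM without exercise, against 0.81 and 465 TPM with it. Of 7 adipocyte markers 6 were tested and 5 were lower. All 7 summed to 62.4 and 275 TPM without exercise and to 2.14 and 13.0 TPM with it.

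Of the 6 genes, 5 passed the filter, 4 of them rose in the exercise group and none fell, against 55.3% of all tested genes called higher. These were Ncam1, Runx1, Gadd45a and Hdac9. Hdac4 was not called, and Dach2, the only one that stood lower in both exercise libraries, was below the filter. The order of TPM was the same in all 4 libraries: Ncam1, Gadd45a, Runx1, Hdac4, Hdac9 and Dach2 from high to low, with no overlap between neighbours within a group. All 5 tested genes lay above both control libraries in each exercise library, as did 72.8% of all tested genes. Once scaled by median-of-ratios, 2 of the 5 remained called higher, Ncam1 and Runx1, against a background of 10.6%, and with quantile normalization 3 did (Gadd45a as well), against 16.4%.

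**Figure D1:**
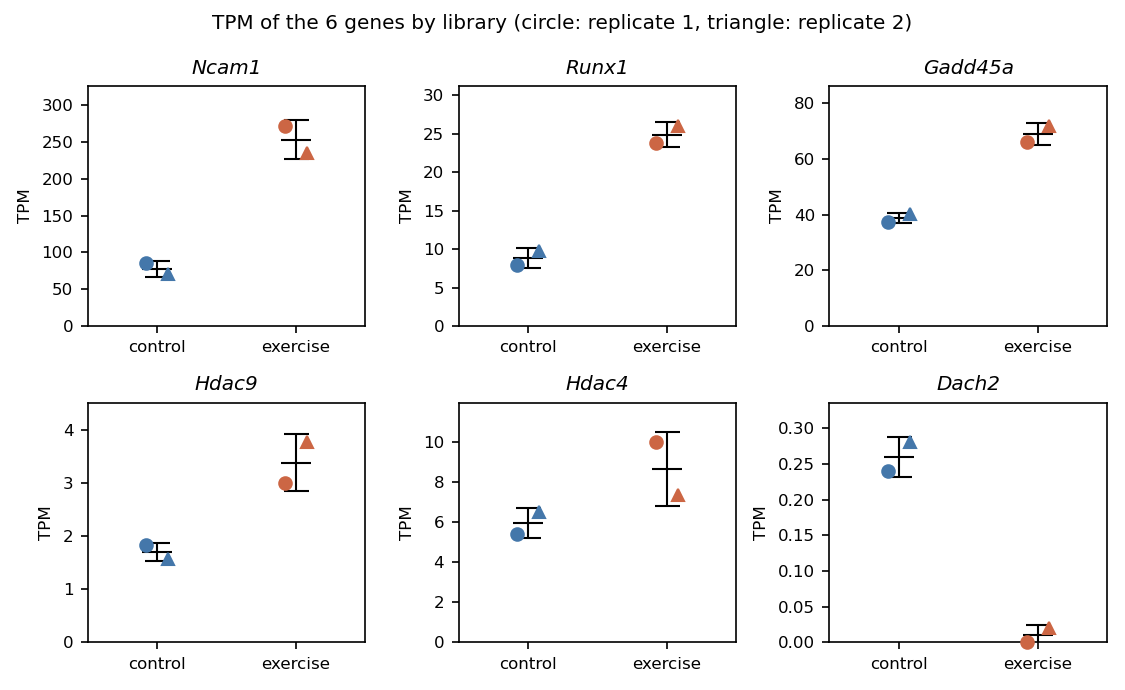
TPM of each gene in the 4 libraries (y axis, TPM, from 0, with a scale of its own in each panel), with control and exercise on the x axis. Circles are replicate 1 and triangles replicate 2, and the bar is the mean with its SD (n = 2 each). Ncam1 stands at 70.2 to 85.3 TPM in control and at 234 to 272 TPM in exercise libraries, and Dach2 is the gene that lies lower in the exercise group.

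Ncam1 (ENSMUSG00000039542) encodes the neural cell adhesion molecule, which is confined to the synapse in adult fibers and spreads over the whole surface of denervated and regenerating ones. It stood at 85.3 and 70.2 TPM without exercise, against 272 and 234 TPM with it. Both exercise libraries were thus far above both controls. The means were 77.8 ± 10.7 and 253 ± 26.4 TPM (SD, n = 2 each), with a log2 fold change of 1.69 (standard error 0.15, limma adjusted p = 0.0028). This lay 1.16 above the median over all genes, and 0.512% of tested genes changed more. It stayed called with median-of-ratios scaling (1.06, adjusted p = 0.018) and after quantile normalization (1.36, adjusted p = 0.013). The antisense gene Gm11149 lies within Ncam1 and was listed at 0.20, 0.22, 0.55 and 0.42 TPM, far below it.

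Ncam1 is also made by satellite cells, the muscle precursors, and by Schwann cells, the glia of the nerve. Of 7 satellite cell markers 6 were tested and 5 were higher, and 3 stayed called with median-of-ratios scaling. All 7 summed to 44.6 and 47.2 TPM without exercise and to 103 and 112 TPM with it. Within a library, Ncam1 was 4.13 and 2.75 times as high as Cdh15, the M-cadherin of satellite cells and myoblasts, in control and 4.95 and 3.995 times in exercise libraries, so this ratio overlapped between groups. Cdh15 was the only marker of this list set against Ncam1 in a ratio, so the overlap describes Cdh15 alone. The 5 markers called higher had log2 fold changes from 0.71 (Pax7) to 1.31 (Megf10), against 1.69 for Ncam1. Pax7 was at most 2.81 TPM, where the fit understates a change. The part of satellite cells in the rise of Ncam1 was not tested. Of 8 Schwann cell markers 5 were tested and none was called. The sum of all 8 was 157 and 36.9 TPM in control libraries, which overlapped 105 and 57.8 TPM in exercise libraries. In such bulk RNA, more cells of a type and more RNA per cell cannot be told apart.

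The enzymes and receptors that act on NCAM mostly moved the same way as Ncam1. Of 8 genes in this list, 6 were tested, 5 rose and none fell (median log2 fold change 1.11, against 0.53 for all tested genes). St8sia2, a sialyltransferase that adds polysialic acid to NCAM in development, stood at 6.54 and 8.17 TPM without exercise, against 20.6 and 21.8 TPM with it (a log2 difference of 1.42, limma adjusted p = 0.0028). Per unit of Ncam1, St8sia2 was at 0.077 and 0.12 in control and at 0.076 and 0.093 in exercise libraries, which overlap. Fyn, a Src-family kinase that signals from NCAM, showed a log2 fold change of 1.47, and Fgfr1, a growth factor receptor that NCAM can activate, of 1.11. Once scaled by median-of-ratios, 4 of the 6 were called higher, with a list median of 0.51.

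Runx1 (ENSMUSG00000022952) encodes a transcription factor that denervated muscle induces strongly and that limits fiber wasting there. It stood at 7.96 and 9.76 TPM without exercise, against 23.8 and 26.0 TPM with it. The groups were far apart beside the gap between replicates. The means were 8.86 ± 1.27 and 24.9 ± 1.61 TPM (SD, n = 2 each), with a log2 fold change of 1.40 (standard error 0.15, limma adjusted p = 0.0028). This was 0.87 above the median of all genes, and 1.56% of tested genes had a larger change. The change was 0.80 with median-of-ratios scaling (adjusted p = 0.010) and 0.88 after quantile normalization (adjusted p = 0.0091).

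Runx1 is best known from blood cells. Of 8 leukocyte markers 3 were tested, none rose, and Lyz2, lysozyme, fell. Their sum was 34.1 and 28.4 TPM without exercise, against 12.7 and 18.6 TPM with it, and the pan-leukocyte gene Ptprc stood at 0.54 and 0.52 TPM against 0.29 and 0.36 TPM. The sum is mostly Lyz2. The other 7 markers summed to 5.42 and 4.97 TPM without exercise, against 3.76 and 5.04 TPM with it, which overlap, and the part of leukocytes in the level of Runx1 was not tested.

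Among relatives and partners, Runx2, the bone-forming member of the family, was lower in level than Runx1. It stood at 0.52 and 1.33 TPM without exercise, against 2.28 and 2.23 TPM with it (a log2 difference of 0.79, limma adjusted p = 0.026). With median-of-ratios scaling the difference was 0.43 and not called (limma adjusted p = 0.25). Of 8 paralogs of the 6 genes, 6 were tested, 3 rose and none fell (median log2 fold change 0.46, against 0.53 for all tested genes). None of these paralogs was called with median-of-ratios scaling. Runx3 was at most 0.07 TPM in any library. Cbfb, the non-DNA-binding partner of all Runx proteins, showed a log2 fold change of 0.57 (limma adjusted p = 0.013), which turned to -0.06 with median-of-ratios scaling. The ratio of Runx1 to Cbfb TPM was 0.14 and 0.15 in control and 0.26 and 0.29 in exercise libraries, with no overlap. The same held for 68.8% of all pairs of tested genes above 0 TPM in every library. Of 7 Runx partners 6 were tested, and 4 rose and 1 fell (median log2 fold change 0.58), against 1 higher and 2 lower (Tle1 and Tle4) with median-of-ratios scaling. Tle3, a Groucho corepressor, rose by 1.22 and Tle4, of the same family, fell by 0.63 on the log2 scale. Both kept their direction and call with median-of-ratios scaling (0.62 and -1.13).

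Gadd45a (ENSMUSG00000036390) encodes a small nuclear stress protein that denervation raises in muscle through HDAC4 in mice and that promotes fiber atrophy when forced. It stood at 37.5 and 40.1 TPM without exercise, against 66.3 and 71.9 TPM with it. Replicates lay close together and the groups did not overlap. The means were 38.8 ± 1.85 and 69.1 ± 3.97 TPM (SD, n = 2 each), with a log2 fold change of 0.82 (standard error 0.12, limma adjusted p = 0.0038). This was 0.29 above the median, and 23.9% of tested genes had a larger change. After median-of-ratios scaling it was 0.19 and no longer called (adjusted p = 0.11), and after quantile normalization it was 0.38 and called (adjusted p = 0.022). E230016M11Rik overlaps Gadd45a on the opposite strand and was listed at 1.83, 1.25, 3.53 and 3.99 TPM. Whether reads were counted by strand is not given in the sources used here.

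The paralogs did not all move with it. Gadd45b, an immediate stress-induced relative, stood at 20.0 and 20.8 TPM without exercise, against 34.2 and 31.1 TPM with it (a log2 difference of 0.65, limma adjusted p = 0.0070, and 0.04 with median-of-ratios scaling, not called). Gadd45g stood at 52.7 and 23.6 TPM without exercise, against 31.9 and 32.6 TPM with it, which overlap. Of 8 partners of Gadd45 proteins, all tested, 4 rose and 2 fell (median log2 fold change 0.57), against 2 and 2 with median-of-ratios scaling. The genes that rose are of the cell cycle, among them Cdk1, the mitotic kinase (1.19), and Trp53, the tumor suppressor p53 that induces Gadd45a (1.12). The genes that fell are of the p38 kinase route, namely Mapk14, p38 alpha (-0.50), and its activator Map2k3 (-0.63). These 4 kept their calls with median-of-ratios scaling (0.63, 0.52, -1.12 and -1.25).

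Hdac4 (ENSMUSG00000026313) encodes the class IIa histone deacetylase that binds MEF2 factors and represses Dach2 in denervated muscle. It stood at 5.43 and 6.51 TPM without exercise, against 9.98 and 7.36 TPM with it. The exercise libraries differed from each other by more than exercise replicate 2 differed from either control library. The means were 5.97 ± 0.764 and 8.67 ± 1.85 TPM (SD, n = 2 each), with a log2 fold change of 0.46 (standard error 0.19, limma adjusted p = 0.069). This was 0.07 below the median of all genes, and 56.1% of tested genes had a larger change. The value turned to -0.09 with median-of-ratios scaling and to -0.06 after quantile normalization, and it was called only in the robust fit (adjusted p = 0.045).

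Hdac9 (ENSMUSG00000004698), which encodes the related deacetylase and its truncated form MITR, stood at 1.83 and 1.58 TPM without exercise, against 3.01 and 3.77 TPM with it. The groups did not overlap, at a low level throughout. The table gives 1 value per gene, so the full-length and truncated forms were not separated. The means were 1.71 ± 0.177 and 3.39 ± 0.537 TPM (SD, n = 2 each), with a log2 fold change of 0.69 (standard error 0.17, limma adjusted p = 0.015), 0.17 above the median. It was no longer called with median-of-ratios scaling (0.24, adjusted p = 0.27), with quantile normalization (0.30, adjusted p = 0.17), or without exercise replicate 2 (0.57, adjusted p = 0.092).

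Hdac5 was the most abundant class IIa deacetylase. It made up 61.1 to 67.4% of the summed TPM of Hdac4, Hdac5, Hdac7 and Hdac9 in all 4 libraries and showed a log2 fold change of 0.45 (limma adjusted p = 0.033, and -0.17 with median-of-ratios scaling, not called). Hdac4 took 13.8 and 15.5% of the sum in control and 17.8 and 12.3% in exercise libraries, whereas Hdac9 took 4.66 and 3.75% in control and 5.38 and 6.29% in exercise libraries. Only the share of Hdac9 separated the groups. Ratios of 2 genes did so for 68.8% of all pairs of tested genes above 0 TPM in every library. Of the other 6 histone deacetylases, 4 rose (median log2 fold change 0.62), a share and a median near those of all tested genes (55.3% and 0.53), including Hdac1 (0.95) and Hdac2 (0.86), the class I enzymes, and none was called with median-of-ratios scaling. Of 9 genes of MEF2 factors and the NCoR-HDAC3 complex, through which class IIa proteins act, 7 rose and none fell (median 0.67), against 2 higher and 1 lower (Gps2) with median-of-ratios scaling. Mef2c rose by 1.18 and Mef2a by 1.02 on the log2 scale, and these 2 stayed called with median-of-ratios scaling (0.55 and 0.40).

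The kinases that send class IIa deacetylases out of the nucleus were mixed. Of 12 genes 11 were tested, 5 rose and none fell (median log2 fold change 0.45), and with median-of-ratios scaling 1 was higher and 3 lower (Camk1, Camk2b and Camk2g). Sik1, a salt-inducible kinase, stood at 15.4 and 16.3 TPM without exercise, against 40.9 and 45.4 TPM with it (a log2 difference of 1.39, limma adjusted p = 0.0028, and 0.78 with median-of-ratios scaling, called). Prkd3, a protein kinase D, showed a log2 fold change of 0.94 (0.38 after that scaling, not called). The calcium-dependent Camk2a and Camk2g, the highest of the list, were not called, at 0.11 and -0.21 (-0.52 and -0.83 after that scaling, where Camk2g was called lower).

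Dach2 (ENSMUSG00000025592) encodes a corepressor of Myog that falls after denervation and lies on the X chromosome. It stood at 0.24 and 0.28 TPM without exercise, against 0 and 0.02 TPM with it. Both exercise libraries were lower, at or next to the last decimal of the table, where no count is known. Of 27036 genes above 0 TPM in any library, 8.78% likewise lay lower in both exercise libraries. It had no value of 1 TPM or more and was not tested with the other 5. Without the filter its log2(TPM + 1) difference was -0.32 (standard error 0.048, limma adjusted p = 0.033), against 1.69% of 27036 genes called lower there. Its drop ran beside those of Xist and of the adipocyte markers, and the part of sex or of adipocytes in it was not tested. Dach1, its paralog, was at 1.45 and 0.80 TPM without exercise, against 1.70 and 1.95 TPM with it (a log2 difference of 0.43, not called, limma adjusted p = 0.11).

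**Figure D2:**
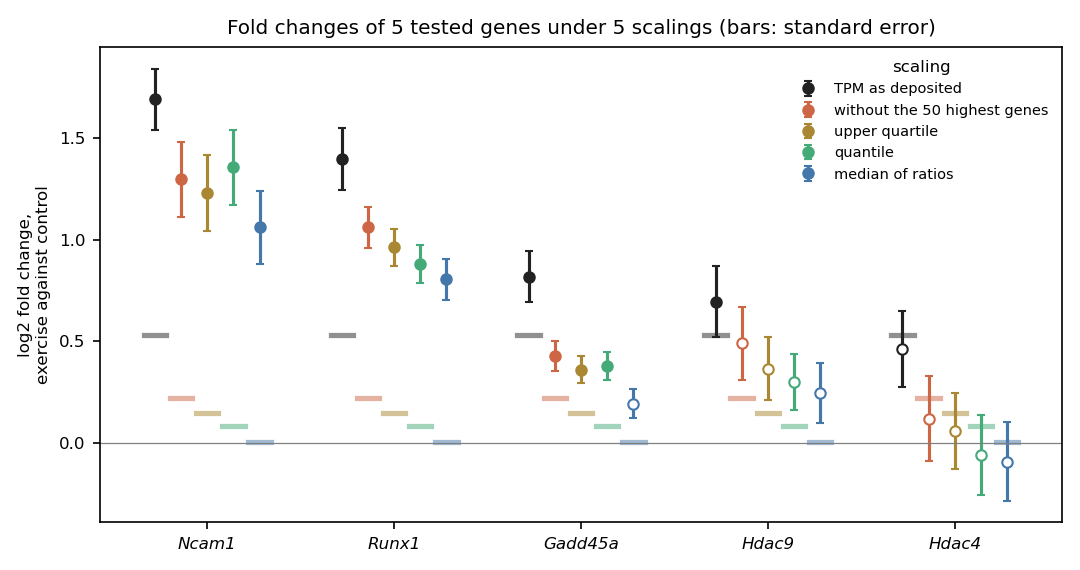
log2 fold change of the 5 tested genes, exercise against control (y axis), under 5 scalings of the same TPM (colors), with the standard error as bars. Filled points have an adjusted p under 0.05 and the pale horizontal marks are the median of all tested genes in that scaling. Ncam1 (1.06 to 1.69) and Runx1 (0.80 to 1.40) stay filled throughout, whereas Hdac4 turns from 0.46 to -0.09.

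The 6 genes were set beside the genes that they control or accompany in denervated muscle. Of 9 genes of the list of myogenin and its denervation targets, all tested, 6 rose and 1 fell (median log2 fold change 1.28, against 0.53 for all tested genes), and 6 were higher and 2 lower with median-of-ratios scaling. Chrng, the fetal gamma subunit of the acetylcholine receptor, stood at 25.9 and 33.9 TPM without exercise, against 93.1 and 108 TPM with it (a log2 difference of 1.72, standard error 0.17, limma adjusted p = 0.0028). Chrnd, the delta subunit, showed a log2 fold change of 1.35 and Myog of 1.37. The adult epsilon subunit Chrne was not called, at 5.44 and 3.24 TPM without exercise, against 6.35 and 5.71 TPM with it. The ratio of Chrng to Chrne, which does not depend on the scaling of a library, was 4.76 and 10.5 in control and 14.7 and 18.9 in exercise libraries, with a wider gap between the controls than between the groups.

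Fbxo32 and Trim63, ubiquitin ligases of atrophy that myogenin raises in denervated muscle, did not rise. Fbxo32, atrogin-1, stood at 25.9 and 31.5 TPM without exercise, against 15.8 and 16.6 TPM with it, and was the gene of the list that fell (a log2 difference of -0.78, limma adjusted p = 0.0062). Trim63, MuRF1, stood at 158 and 182 TPM without exercise, against 146 and 122 TPM with it, with a log2 fold change of -0.34 that was not called (limma adjusted p = 0.083) and one of -0.97 that was called with median-of-ratios scaling (adjusted p = 0.014). The ratio of Fbxo32 to Gadd45a was 0.69 and 0.79 in control and 0.24 and 0.23 in exercise libraries, with no overlap, as for 68.8% of all such pairs. Fbxo30, a ubiquitin ligase in the list of other denervation-induced genes, did rise. It stood at 9.50 and 10.4 TPM without exercise, against 21.5 and 23.0 TPM with it. Its log2 fold change was 1.08 (limma adjusted p = 0.0029), and 0.49 with median-of-ratios scaling, still called.

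Of 10 other denervation-induced genes, 9 were tested and all 9 rose (median log2 fold change 1.29), and 6 stayed called with median-of-ratios scaling (median 0.66). Myh3, embryonic myosin heavy chain, stood at 320 and 379 TPM without exercise, against 911 and 1040 TPM with it (a log2 difference of 1.48, limma adjusted p = 0.0028). Myh8, perinatal myosin heavy chain, showed a log2 fold change of 1.44. Cdkn1a, the cell cycle inhibitor p21, rose by 1.37 on the log2 scale. Each rise was larger than the spread between replicates. Sln, Ampd3 and Tnfrsf12a were the 3 that lost the call after scaling (0.27, 0.09 and 0.41).

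**Figure D3:**
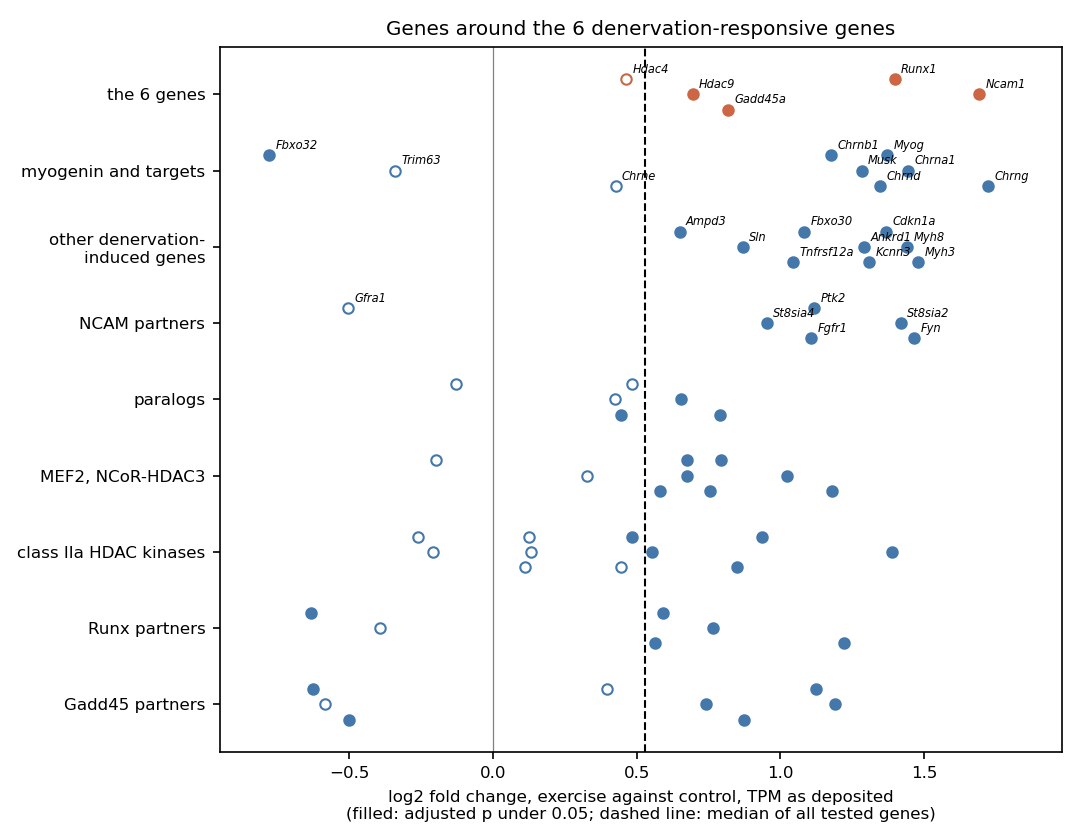
log2 fold change, exercise against control on TPM as deposited (x axis), of the 5 tested genes (orange) and of the tested genes of 8 lists around them (blue, 1 list per line). Filled points have an adjusted p under 0.05, and the dashed line is the median of all tested genes, 0.53. Ncam1 and Runx1 lie with Chrng, Myog and Myh3 above 1.3, Hdac9 and Gadd45a lie just above the dashed line, and Fbxo32 lies at -0.78.

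Ratios between these genes within a library are free of its scaling. Of the 10 pairs among the 5 tested genes, 6 did not overlap between groups, a share below the 68.8% found over all pairs of tested genes above 0 TPM in every library, so the count sets these pairs apart in no way. Ncam1 was 2.28 and 1.75 times Gadd45a in control and 4.10 and 3.26 times in exercise libraries. Runx1 was 1.47 and 1.50 times Hdac4 in control and 2.38 and 3.54 times in exercise libraries. Ncam1 and Runx1 thus stood higher relative to Gadd45a, Hdac4 and Hdac9 in both exercise libraries, and the 6 pairs that did not overlap are those of Ncam1 or Runx1 with these 3. The ratio of Ncam1 to Runx1 overlapped (10.7 and 7.19 in control, 11.4 and 9.01 in exercise libraries), as did all 3 ratios among Gadd45a, Hdac4 and Hdac9. With 2 libraries against 2, no exact two-sided permutation test of a ratio can give a p below 0.333, so these are descriptions. The ratio of Runx1 to Myog was 0.043 in both control libraries and 0.047 in both exercise libraries, a small gap with no overlap. The TPM of both genes stood higher in the exercise group. These pairs with genes outside the 6 were chosen after their values were seen.

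**Figure D4:**
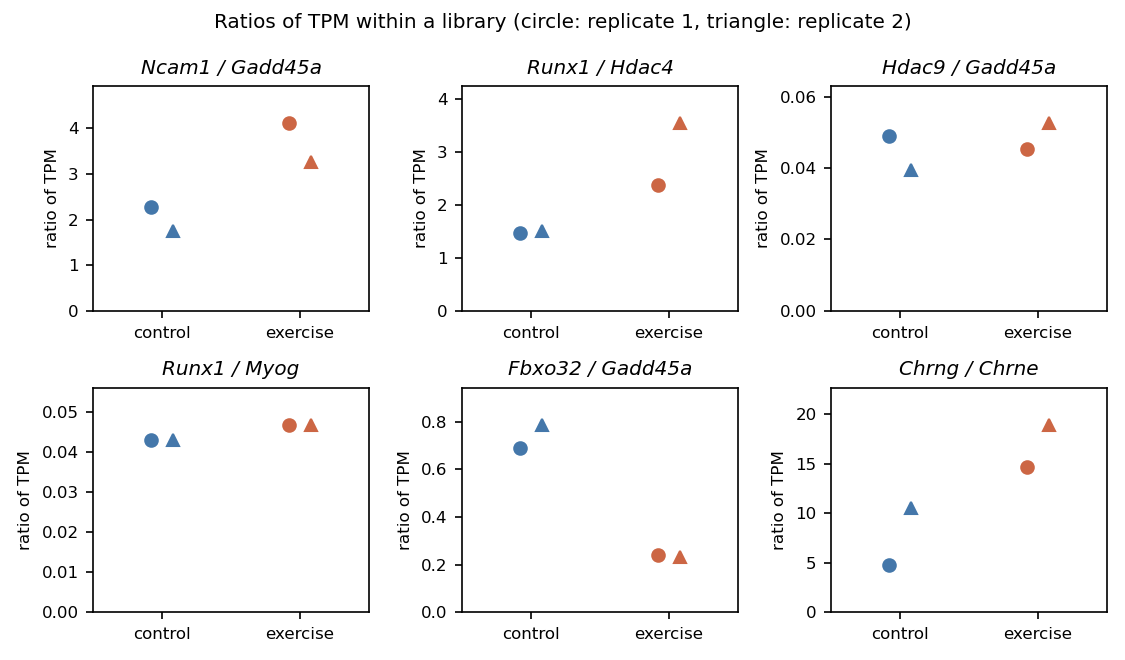
Ratios of TPM of 2 genes within each library (y axis, from 0, with a scale of its own in each panel), for control and exercise (x axis). Circles are replicate 1 and triangles replicate 2. Ncam1 to Gadd45a (1.75 to 2.28 against 3.26 to 4.10), Runx1 to Hdac4, Fbxo32 to Gadd45a and Chrng to Chrne do not overlap between groups. The 2 control values of Chrng to Chrne (4.76 and 10.5) lie farther apart than the groups do. Runx1 to Myog does not overlap either, by a small gap (0.043 in control against 0.047 in exercise libraries), and Hdac9 to Gadd45a overlaps.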

How the data were processed

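TPM of 57180 genes in 4 TA libraries (2 control, 2 exercise) were deposited by the authors, rounded to 2 decimals. Reads were trimmed and aligned by the authors (fastp, HISAT2 and StringTie on build GRCm39 in the submitters' notes, SeqPrep and Sickle in the paper, no versions). The library kit is Illumina Stranded mRNA Prep in the labels and NEBNext Ultra in the paper. DEGseq, the authors' test, needs counts, which TPM do not hold. Genes that reached 1 TPM in 2 or more libraries were fitted as log2(TPM + 1) by limma (version 3.58.1, R 4.3.3, trended eBayes, no covariate), which understates the change of low genes, and p-values were adjusted over all 13288 genes. The fit was tested on simulated data. Tables and figures used Python 3.11.15, pandas 2.3.3, numpy 2.4.6 and matplotlib 3.10.9. Start-site windows are RefSeq sequences, and overlapping genes come from GENCODE vM21 (GRCm38). Alternatives were pseudocounts of 0.1 and 0.01, other filters, scalings and variance models, each library left out, and a replicate block. The 6 genes and the lists were chosen with earlier results of these data known. Named in each list were the 2 tested genes of smallest p and the 2 of highest mean TPM, and those that a count of 5 or fewer singles out. Fbxo30 was named in addition, beside the other ubiquitin ligases. Some genes of the planned lists are not reported here, and the counts of lists leave them out.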

Additional observations from a re-analysis of the deposited data

How the results depend on the processing

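Ncam1 and Runx1 kept their direction and call in all alternatives run. Hdac9 was not called with no filter (a log2 difference of 0.69, limma adjusted p = 0.078), with median-of-ratios scaling (0.24), quantile normalization (0.30) and upper quartile scaling (0.36), or without the 50 highest genes (0.49), and fell below a filter on a mean of 5 TPM. Gadd45a was not called with median-of-ratios scaling (0.19). Hdac4 turned to -0.093 with median-of-ratios scaling and to -0.063 with quantile normalization, and was called in the robust fit (0.46). The number of the 6 genes called higher was 2 with median-of-ratios scaling, and with no filter 1 was called lower, Dach2. Over all genes, 4513 were higher and 456 lower with no filter, 1403 and 2238 with median-of-ratios factors, 2178 and 1749 after quantile normalization, 3432 and 1508 without the 50 highest genes, and 2811 and 1699 after upper quartile scaling. With each library left out in turn, 2622 to 7039 genes were higher and 410 to 814 lower (the lowest of each without exercise replicate 2), Hdac9 ranged from 0.57 to 0.82 and lost its call without exercise replicate 2, and Hdac4 ranged from 0.27 to 0.66. The main fit took the replicate numbers as no pairing of the samples. Deviations of control and exercise replicate 1 from their group means correlated at -0.049 across genes. With 2 libraries per group, this value cannot settle whether the samples were paired. With the replicate block 7400 genes were higher and 830 lower, and no call of the 6 genes changed. The cause was not tested. With TPM alone, precision is that of 2 libraries per group, and for Dach2 of the last decimal.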

Other observations

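The genes whose log2(TPM + 1), centred over the 4 libraries, lay closest to each of the 5 tested genes were looked up among genes whose mean reached 5 TPM. The closest to Runx1 were Arpp21, a cyclic AMP-regulated phosphoprotein, and Myog, at root mean square differences of 0.012 and 0.015 on the log2 scale, with 300 of 8602 genes within 0.1. Arpp21 stood at 22.6 and 27.9 TPM without exercise, against 64.0 and 70.8 TPM with it. Ncam1 had few neighbours: Ece1, an endothelin-converting enzyme, lay at 0.091, Arhgap22 lay at 0.12, and only 1 gene within 0.1. Ece1 stood at 10.3 and 9.93 TPM without exercise, against 35.6 and 30.9 TPM with it. The closest to Hdac4 were Gng2 and Cnot11 (0.014 and 0.025, 49 genes within 0.1) and to Hdac9 Timm10 and Tepsin (0.011 and 0.015, 709 of 8603). Gadd45a had the most neighbours, Puf60 and Rhoa the closest (0.0048 and 0.0093), with 1675 genes within 0.1. These distances rest on 4 libraries in 2 groups and describe likeness over those libraries alone.

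Embryonic and adult fast myosin differed in direction beside the rise of Ncam1 and Runx1. Myh3 was 0.056 and 0.047 times Myh4, the fast IIb myosin heavy chain, in control libraries and 0.25 and 0.43 times in exercise libraries, a ratio free of library scaling that was computed after the values were seen.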
